A study of Arabidopsis thaliana with 12 samples.

Results

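The 24-nt siRNAs of *nrpe1-11* seedlings were compared with those of WT seedlings in 100-bp bins along the 5 nuclear chromosomes of *Arabidopsis thaliana*. The bins were those of the deposited siRNA table on chromosomes 1 to 5, outside the rDNA stretches at the top of chromosome 2 and near the centromere of chromosome 3, in which at least 1 of the 6 *nrpe1* and WT libraries exceeded 5 RPTM (reads per 10000000 mapped reads). Of 57094 bins in the table, 52663 met this rule. The study made 12 libraries from 4 genotypes, with 3 libraries of each, and the 6 libraries of *nrpe1-11* and WT are compared here. Both groups were 2-week-old seedlings grown on MS plates at 22 °C with 12 h of light according to the labels, and the labels name no difference other than the *nrpe1-11* allele. The mutant is a single line, and NRPE1 RNA is not measured in a small RNA table, so the genotype could not be checked by its own transcript.

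*NRPE1* encodes the largest subunit of Pol V, the plant RNA polymerase that makes scaffold transcripts in RNA-directed DNA methylation (RdDM). In that pathway Pol IV and RDR2 make double-stranded RNA, DCL3 cuts it to 24-nt siRNAs, and AGO4 or AGO6 carries these siRNAs to Pol V transcripts, where DRM2 methylates cytosines. Pol V acts downstream of siRNA production, but methylation also helps recruit Pol IV through SHH1, so that part of the siRNA pool depends on Pol V. RdDM is known chiefly at short transposons near genes and at the edges of long ones, whereas in the bodies of long pericentromeric transposons CMT2 and DDM1 maintain methylation. In whole seedlings, fewer cells holding an siRNA and fewer siRNA molecules per cell cannot be told apart.

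The WT libraries held 7164212 to 12390784 mapped reads and the *nrpe1* libraries 6116124 to 6648631, recovered from the smallest steps of the values. The member bins held 838273 to 1407684 24-nt reads in WT and 244520 to 323036 in *nrpe1*. A single read was worth 0.807 to 1.40 RPTM in WT and 1.504 to 1.64 in *nrpe1*, so a bin with no read in an *nrpe1* library allows up to 3 reads, or 4.51 to 4.91 RPTM. Only counting error enters these limits. Replicate 2 of *nrpe1*, like replicate 2 of *nrpd1-3*, stood apart in holding reads at more of the bins that lost siRNA, which is described with those bins. The labels do not say that replicates came from separate sowings, so the tests measure the spread between these libraries. All replicate pairs differed by more than sampling noise, their chi-square over its degrees of freedom being 1.21 to 2.09.

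The median G+C content was 31% in lost, 39% in kept and 37% in gained bins. The few examples below do not represent these classes, and the kept ones lie above their median. The bins below are examples of bins that lost, kept and gained siRNAs, shown as DNA. They are the plus strand of TAIR10, 5′ to 3′, taken from the RefSeq copy of the assembly, and capitals mark CG dinucleotides. The first 3 were lost in *nrpe1*, at chr5:16753801-16753900, chr1:8254801-8254900 and chr5:18171301-18171400. Their G+C contents are 19%, 30% and 31%.
Lost bin on chromosome 5: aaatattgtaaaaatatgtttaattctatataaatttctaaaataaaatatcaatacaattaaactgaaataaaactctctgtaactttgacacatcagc
Lost bin on chromosome 1: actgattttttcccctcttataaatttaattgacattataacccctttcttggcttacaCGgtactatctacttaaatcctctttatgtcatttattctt
Lost bin in a run of 11: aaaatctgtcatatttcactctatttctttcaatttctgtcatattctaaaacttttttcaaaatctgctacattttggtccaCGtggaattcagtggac
The next bins were kept, at chr2:2606501-2606600 and chr1:16523401-16523500, with G+C contents of 47% and 50%. Each is the bin with the highest WT level among the kept bins of a long run described later.
Kept bin in a run of 46: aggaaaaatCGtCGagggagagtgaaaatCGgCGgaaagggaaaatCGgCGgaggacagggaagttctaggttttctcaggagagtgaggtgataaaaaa
Kept bin in a run of 39: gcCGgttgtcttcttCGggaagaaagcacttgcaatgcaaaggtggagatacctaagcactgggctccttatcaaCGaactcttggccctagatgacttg
The last ones were gained, at chr5:9904501-9904600 and chr2:4337401-4337500, with G+C contents of 39% and 43%.
Gained bin on chromosome 5: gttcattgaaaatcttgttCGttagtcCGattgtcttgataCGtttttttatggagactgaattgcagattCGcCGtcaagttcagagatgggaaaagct
Gained bin in a run of 38: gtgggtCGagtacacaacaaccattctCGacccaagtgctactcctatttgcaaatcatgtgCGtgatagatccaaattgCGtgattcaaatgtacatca

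The nuclear 24-nt siRNA pool of *nrpe1* was well below that of WT. Summed over the members, it was 34.0%, 42.5% and 41.9% of the WT mean in the 3 *nrpe1* libraries, and 98.0% to 101.1% in the WT libraries. The groups did not overlap, and replicate 1 was the lowest *nrpe1* library. The mean was 39.5% ± 4.76 of WT (SD, n = 3), and the two-sided exact permutation test gave p = 0.1, below which 3 libraries against 3 cannot go.

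By limma at an adjusted p of 0.01, 16541 of the 52663 members were lost (31.4%) and 567 were gained (1.08%). Over all 56658 bins tested, 29.4% were called lower and 1.02% higher. The members are nearly all of these bins, so their shares lie near that background. A further 15203 members (28.9%) were kept, meaning that they had no call, a WT mean above 5 RPTM and an *nrpe1* mean between 0.5 and 2 times the WT mean. For 2360 of these the 95% interval of the change lay within 2-fold either way. The other 20352 members had neither a call nor a kept level. Only a part of the members could have been called in each direction, since 21696 passed the filter through WT alone and 4002 through *nrpe1* alone, and these gave 13450 of the 16541 lost bins and 270 of the 567 gained bins. Scaling the libraries to equal totals outside the rDNA turned the median of the members from −0.80 to 0.25 and left 9366 bins lost and 5566 gained, so that 37.3% of the calls were higher, against 3.31% as deposited. Higher calls were 14.5% of all calls with equal 24-nt totals and 41.8% after quantile normalization, so the levels below are relative to all mapped reads, as the authors scaled them. Leaving out WT replicate 1, 2 or 3 left 10875, 10294 or 10462 lost bins and 294, 196 or 219 gained bins, and leaving out *nrpe1* replicate 2 or 3 left 297 or 226 gained bins.

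The 3 kinds of bin held very different amounts of siRNA. They were sorted by these same values, so the changes below describe the sorting and carry no test. Lost bins had a median of 20.4 ± 1.61 RPTM in WT and 0.545 ± 0.944 in *nrpe1* (each the mean and SD of 3 library medians), and in 4968 of them (30.03%) no *nrpe1* library had a read. Kept bins had medians of 9.45 ± 0.478 and 9.46 ± 1.27 RPTM. Gained bins rose from 4.01 ± 0.187 to 20.01 ± 1.99, and 30 of them had no read in any WT library. The lost bins carried 63.4% ± 1.37 of the members' siRNA in WT and 10.7% ± 1.43 of it in *nrpe1*. The kept bins went from 24.9% ± 1.24 to 62.8% ± 1.83 of the pool. In *nrpd1-3*, the mutant of the Pol IV largest subunit, the median was 0 RPTM in every library for lost, kept and gained bins alike, and these libraries share the WT controls.

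Loss was far deeper on the chromosome arms than around the centromeres. The pericentromere was taken as the 3 Mb on each side of a rounded centromere midpoint. On the arms 50.2% of 20818 bins were lost and 19.98% kept, and *nrpe1* held 19.6%, 25.3% and 24.2% of the WT mean. In the pericentromere 19.1% of 31845 bins were lost and 34.7% kept, and *nrpe1* held 50.6%, 62.5% and 62.5%. Every *nrpe1* library was thus lower on the arms than any was in the pericentromere. The log2 ratio of arm to pericentromere siRNA was 0.21 ± 0.05 in WT and −1.14 ± 0.04 in *nrpe1* (SD, n = 3), a relative fall on the arms by 2.55 times with no overlap between groups. The exact permutation test gave p = 0.1 and an adjusted p of 0.106 over 17 such comparisons, of which 16 reached the smallest p possible. Each chromosome showed the same direction, with relative falls of 2.09 times on chromosome 2 to 2.87 times on chromosome 3.

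The change followed the distance to the centromere. Within 1 Mb of the midpoint *nrpe1* held 86.6% ± 7.65 of WT siRNA (SD, n = 3) and 7.52% of bins were lost. The level was 61.1% ± 8.04 from 1 to 2 Mb, 35.4% ± 4.999 from 2 to 3 Mb and 23.98% ± 3.56 from 3 to 4 Mb. From 4 to 8 Mb it lay between 16.7% and 21.8%, and 48.9% to 55.2% of bins were lost. The fall thus spread over the first 5 Mb, with no further steady fall up to 8 Mb. Beyond 8 Mb *nrpe1* held 27.9% ± 3.14, where *nrpd1* held 22.9% of WT. Without the 1892 members whose *nrpd1* mean exceeded 50% of the WT mean, the *nrpe1* level beyond 8 Mb was 13.9% ± 2.65, and within 1 Mb of the midpoint it was 81.3% ± 11.1.

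**Figure D1:**
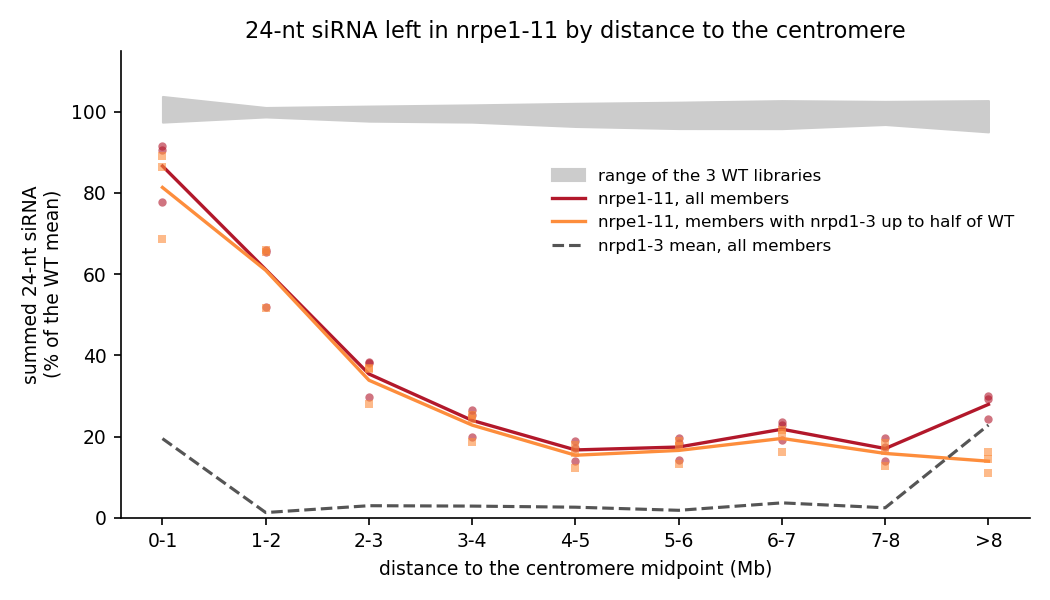
Summed 24-nt siRNA as a percentage of the WT mean (y axis) by distance to the centromere midpoint in Mb (x axis); points are single *nrpe1-11* libraries, lines their means, the grey band the range of the 3 WT libraries and the dashed line the *nrpd1-3* mean. The *nrpe1* level falls from 86.6% within 1 Mb to 16.7% at 4 to 5 Mb, and the squares leave out bins with an *nrpd1-3* mean over 50% of WT.

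Adjoining members were joined into runs, and the length of a run went with its fate. Bins could be members through *nrpe1* alone, so run length was partly set by the *nrpe1* libraries themselves. Short runs of 2 to 4 bins carried 55.6% of the WT siRNA of the members and lost most, with 41.0% of 24574 bins lost and 25.8% ± 3.43 of WT left. Single bins held 46.6% ± 4.83 of WT and runs of 5 to 10 bins 55.5% ± 7.24. In the 91 runs of 11 to 20 bins 5.20% of bins were lost and 61.5% kept, and the 3 *nrpe1* libraries held 78.4%, 99.98% and 99.4% of WT against 94.96% to 105% in the WT libraries, so the groups overlapped. In the 18 runs of more than 20 bins *nrpe1* held 84.7% ± 8.59 and *nrpd1* 71.3% of WT, and without the bins with an *nrpd1* mean over 50% of WT the *nrpe1* level there was 81.4% ± 12.7. Relative to runs of 11 bins or more, single bins fell 1.89 times in *nrpe1* against WT (p = 0.1, adjusted p = 0.106, exact permutation test, n = 3). The same comparison gave 2.54 times on the arms and 1.44 times in the pericentromere, again with p = 0.1 in exact permutation tests. The long runs of the arms were mostly siRNA that *nrpd1* also held. In WT the arm runs of more than 20 bins held 21293 RPTM and those of 11 to 20 bins 4243 RPTM. *nrpd1* held 118% and 13.4% of WT in them. The arm comparison without bins of high *nrpd1* level was not tested.

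At one WT level, run length still separated the bins. Among bins of 20 to 50 RPTM in WT, 68.6% of single bins, 73.4% of bins in runs of 2 to 4 and 7.31% of bins in runs of 11 to 20 were lost. The corresponding *nrpe1* levels were 31.3% ± 1.99, 25.5% ± 3.42 and 99.1% ± 12.8 of WT. Neighbouring bins mostly shared a fate, since 75.4% of the members adjoining a lost bin were lost themselves and 57.8% of those adjoining a kept bin were kept. Over all members 31.4% were lost and 28.9% kept. A read across a bin border may have been counted in both bins, and its part in these shares was not tested. Of the 1166 runs of 5 or more bins, 70 were lost throughout, 599 had no lost bin and 328 held both lost and kept bins. Position inside a long run made little difference. In runs of 11 or more bins the 2 outermost bins at each end held 84.0% ± 12.8 of WT and the interior 88.7% ± 9.62, a difference of −0.08 on the log2 scale beside SDs of 0.02 in WT and 0.07 in *nrpe1* (p = 0.1, exact permutation test). This small difference turned to 0.0874 when members had to exceed 10 RPTM.

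**Figure D2:**
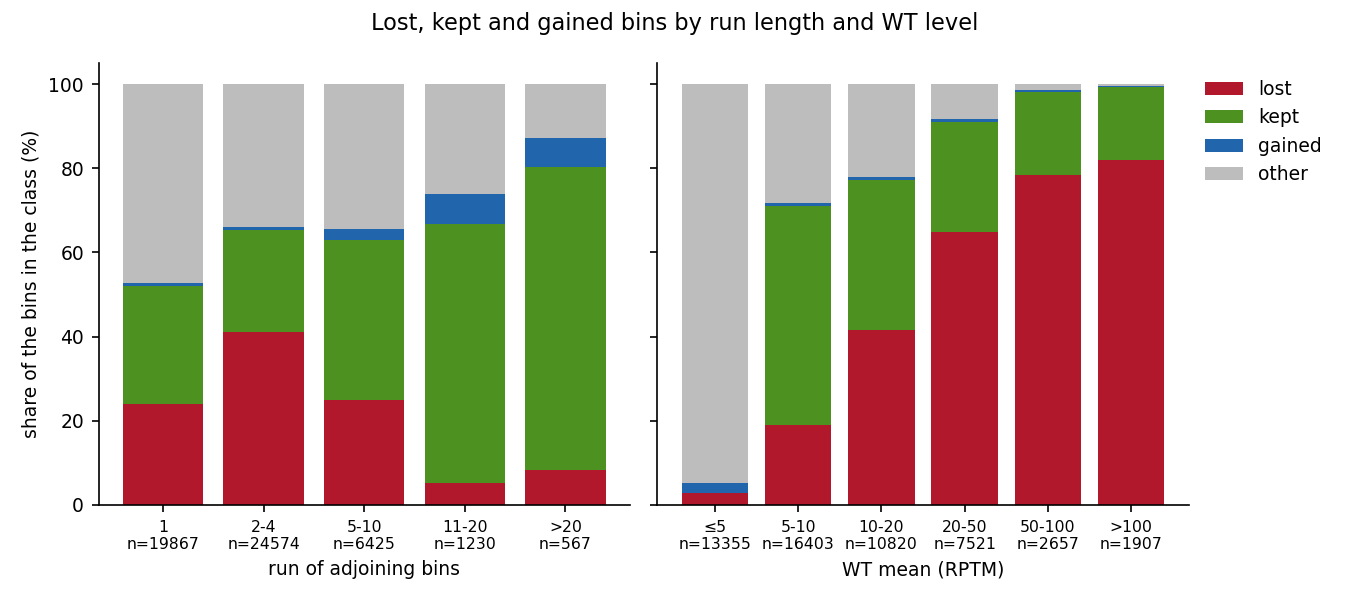
Stacked bars give the percentage of member bins that were lost, kept, gained or neither (y axis) by length of the run of adjoining bins (left) and by mean WT level in RPTM (right), with the number of bins under each bar. Lost bins make up 41.0% of bins in runs of 2 to 4 and 5.20% in runs of 11 to 20, and rise from 2.88% to 82.0% across WT levels.

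The bins richest in siRNA in WT lost the largest share of it. Of the 1907 bins above 100 RPTM in WT, 82.0% were lost and *nrpe1* held 23.9% ± 2.52 of the WT siRNA. The level rose through 26.3% ± 3.33 at 50 to 100 RPTM, 34.9% ± 4.08 at 20 to 50, 49.3% ± 6.27 at 10 to 20 and 73.1% ± 9.29 at 5 to 10. Bins of up to 5 RPTM in WT held 143% ± 19.0 of WT, but 4002 of these 13355 bins entered through *nrpe1* alone. Their *nrpd1* and *pkl-1* levels were 8.60% and 143% of WT. The WT libraries set both the class and the fold, so these values are a description with no test. With classes set by WT replicate 1 alone and levels measured against the other 2 WT libraries, *nrpe1* held 25.1% ± 2.48 above 100 RPTM, 67.0% ± 8.71 at 5 to 10 RPTM and 96.6% ± 14.7 at up to 5. The level above 100 RPTM relative to that at 5 to 10 RPTM was 0.327, and among bins whose every 24-mer is unique in the genome it was 0.181. Fewer bins could be called at low levels, since a bin of 5 RPTM is little more than 3 reads in an *nrpe1* library. Arms and pericentromere differed at equal WT level. At 20 to 50 RPTM 80.2% of arm bins and 48.5% of pericentromeric bins were lost, with 19.1% ± 2.70 and 52.1% ± 5.62 of WT left, a relative fall on the arms by 2.73 times (p = 0.1, exact permutation test).

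Levels also differed with what a bin overlapped. The RefSeq annotation of TAIR10 places 32346 members between genes, 12612 in pseudogenes, a class that includes its transposon genes and 6291 in protein-coding genes, with the rest in other kinds of gene. Intergenic bins were lost in 41.8% of cases, bins in protein-coding genes in 30.4%, and bins in pseudogenes in 5.57%. *nrpe1* held 30.4% ± 4.02, 41.7% ± 4.44 and 90.4% ± 10.4 of WT in these 3 classes. In pericentromeric pseudogenes the *nrpe1* libraries held 86.0%, 106% and 106% of the WT mean against 94.7% to 106% in WT, so the groups overlapped, while *nrpd1* held 1.81%. On the arms, pseudogene bins held 74.9% ± 8.57 and intergenic bins 12.5% ± 2.43 of WT. The arm intergenic sum fell 6.03 times relative to the arm pseudogene sum (p = 0.1, exact permutation test, no overlap). At one WT level of 20 to 50 RPTM, 87.1% of arm intergenic and 46.3% of arm pseudogene bins were lost. These bins held 12.4% ± 2.73 and 53.7% ± 4.07 of WT. Pericentromeric pseudogene bins of that level held 79.1% ± 9.19. There the *nrpe1* libraries were at 68.6%, 83.7% and 85.2% against 96.4% to 103.9% in WT, without overlap. Pseudogenes with 50 RPTM or more in WT numbered 642, and their median level was 92.7% of WT, with 474 between 50% and 200%, 157 below and 11 above. Only 11 of the 4849 pseudogenes carried a transposon family word in their notes, so families could not be compared.

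Loss was deepest next to protein-coding genes. Outside protein-coding genes, and with pseudogene bins included, bins within 0.5 kb of a protein-coding gene held 17.4% ± 2.50 of WT and 60.3% were lost. The level rose to 20.7% ± 3.31 at 0.5 to 1 kb, 30.5% ± 4.85 at 1 to 2 kb, 56.2% ± 6.25 at 2 to 5 kb and 83.1% ± 8.64 beyond 5 kb, where 7.62% were lost. These sums are not set to one WT level. The median WT level was 13.9 RPTM within 0.5 kb and 6.2 RPTM beyond 5 kb. Bins near the filter of 5 RPTM can be members through *nrpe1* alone, which raises the level. Among intergenic bins alone the level was 13.0% ± 2.52 within 0.5 kb and 76.8% ± 7.69 beyond 5 kb. Both positions showed the order. Within 0.5 kb of a gene the level was 14.9% ± 2.02 on the arms and 24.4% ± 3.95 in the pericentromere, and beyond 5 kb it was 56.2% ± 6.73 and 84.8% ± 8.76. The 10071 bins within 1 kb upstream of a protein-coding start, which cover promoters, held 17.8% ± 3.00 of WT. On the arms alone these bins held 14.1% ± 2.53 and the other arm bins 29.2% ± 3.42, a relative fall by 2.09 times (p = 0.1, exact permutation test, n = 3).

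Summed over all members, the *nrpe1* level climbed to that of WT within 1 kb across the ends of long pseudogenes. These sums are not set to one WT level, and interior bins lay near the filter of 5 RPTM. On the arms the median WT level was 5.94 RPTM more than 1000 bp inside and 10.1 RPTM at 500 to 1000 bp outside. Bins near the filter can be members through *nrpe1* alone, which raises the level. The members touched 1605 pseudogenes of 2 kb or more. On the arms, bins 500 to 1000 bp outside such a pseudogene held 29.6% ± 3.62 of WT and bins within 500 bp outside 40.5% ± 7.15. The first 500 bp inside held 84.2% ± 10.6, and bins more than 1000 bp inside held 113% ± 10.8, with 31.9% of bins lost at the first and 1.98% at the last of these positions. In the arm interior the *nrpe1* libraries were at 100.1%, 118% and 119% of the WT mean and the WT libraries at 96.4% to 106%, so that the groups overlapped. In the pericentromere the same 5 positions, from outside to inside, held 59.9%, 80.3%, 100.6%, 108% and 111% of WT. In the interiors the arm and pericentromeric levels were alike to within the spread of the libraries, whereas outside they were not. At these 10 positions *nrpd1* held 0.711% to 2.22% of WT.

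**Figure D3:**
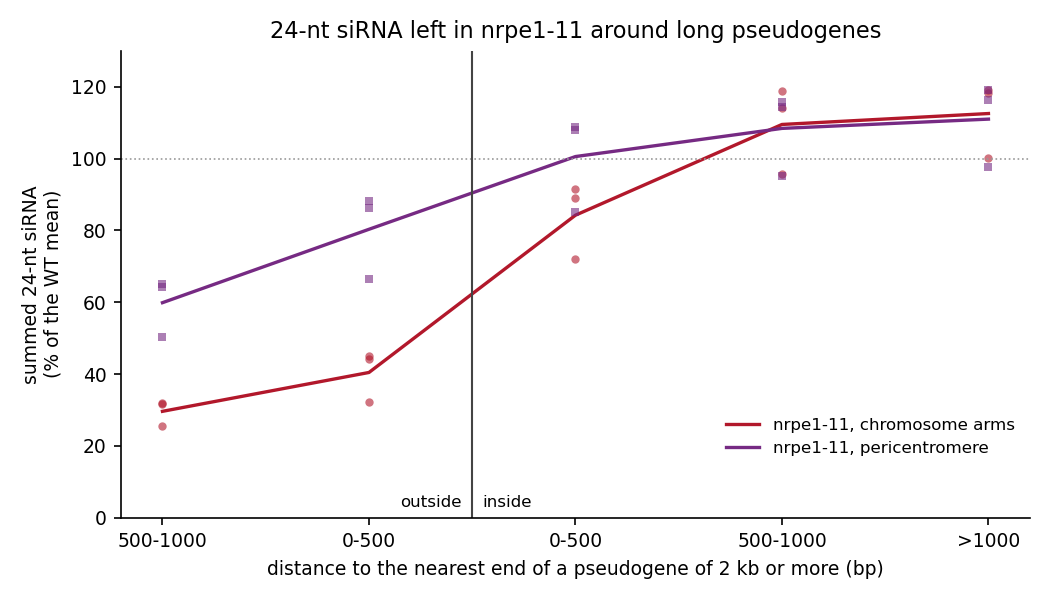
Summed 24-nt siRNA in *nrpe1-11* as a percentage of the WT mean (y axis) by distance to the nearest end of a pseudogene of 2 kb or more (x axis, bp), outside to the left of the vertical line and inside to the right; points are single libraries and lines their means. On the arms the level climbs from 29.6% to 113%.

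Lost bins were rich in A and T. Their median G+C content was 31%, against 39% in kept and 37% in gained bins. Bins of up to 25% G+C held 18.3% ± 3.39 of WT in *nrpe1*, bins of 35 to 40% held 44.2% ± 5.67, and bins above 50% held 101.1% ± 6.03. The last value includes bins with *nrpd1* reads, and without those whose *nrpd1* mean was over 50% of WT it was 91.1% ± 15.1. On the arms the level climbed from 9.88% to 79.0% over these classes and in the pericentromere from 33.4% to 109.9%. In the class above 50% G+C *nrpd1* held 34.1% of WT on the arms and 52.1% in the pericentromere. At one WT level of 20 to 50 RPTM the climb was smaller at its top. There the lowest and highest G+C classes held 9.73% and 62.0% on the arms and 31.1% and 97.4% in the pericentromere. Relative to bins above 35% G+C, bins of up to 35% fell 2.32 times in *nrpe1* (p = 0.1, exact permutation test, n = 3). Annotation and base composition were not the same division. At 35 to 40% G+C, arm intergenic bins held 14.4% ± 2.55 and arm pseudogene bins 70.4% ± 8.85 of WT. Bins whose every 24-mer occurs elsewhere in the genome held 61.5% ± 5.20 of WT and bins with only unique 24-mers 38.9% ± 5.01. Bins with some 24-mers repeated held 35.1% ± 4.53, within the spread of the unique bins. *nrpd1* held 22.9% of WT in the fully repeated bins, 7.71% in the partly repeated ones and 4.199% in the unique ones. The study's methods keep reads with a single genomic hit only, yet the fully repeated bins held 11.9% of the members' WT siRNA. Only 24-mers lying wholly in a bin were searched, and how reads came to be counted in such bins was not tested.

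**Figure D4:**
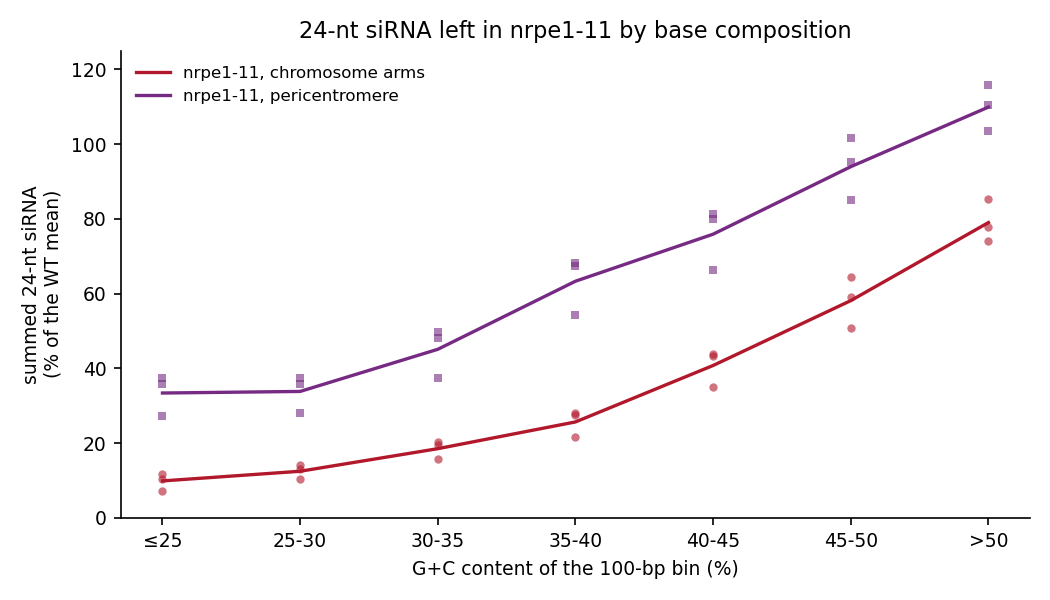
Summed 24-nt siRNA in *nrpe1-11* as a percentage of the WT mean (y axis) by G+C content of the bin (x axis, %), for chromosome arms and pericentromere; points are single libraries and lines their means. Both lines rise with G+C content, from 9.88% to 79.0% on the arms.

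The largest decreases were almost complete. The bin at chr4:1488401-1488500, within an intron of *AT4G03380*, a gene for an uncharacterized protein, held 2818, 3172 and 2571 RPTM in the WT libraries. It held 1.61, 21.3 and 1.504 RPTM in the *nrpe1* libraries, a log2 fold change of −9.08 ± 0.76 (SE, limma adjusted p = 6.49e-05). The intergenic bin at chr5:16753801-16753900, 536 bp from the F-box gene *AT5G41840*, held 613, 561 and 599 RPTM in WT and 0, 1.64 and 0 in *nrpe1*, which is 1 read in 1 of 3 libraries. Its log2 fold change was −8.74 ± 0.40 (limma adjusted p = 1.84e-05). The groups were far apart in both bins, as the choice of bins required. The bin at chr1:8254801-8254900 lies 164 bp upstream of the caleosin-related gene *AT1G23240* and fell from 847 ± 238 to 2.18 ± 3.78 RPTM (SD, n = 3). The bin at chr5:5749201-5749300, 423 bp upstream of the LUC7-related gene *AT5G17440*, fell from 997 ± 143 to 5.45 ± 9.44, and the intergenic bin at chr5:19952501-19952600 from 1123 ± 81.9 to 3.82 ± 6.61. All 5 of these bins were picked from those that passed the test without overlap. They lie in runs of 2 or 3 bins and held no more than 17.2 RPTM on average in *nrpd1*. In each of the 5 the *nrpe1* reads were mostly or only in replicate 2. Log2 fold changes of bins with so few reads depend on the added pseudocount of 1 RPTM.

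The lost and kept runs named here were picked because most of their bins shared a fate. Of 1166 runs of 5 or more bins, 143 had at least 80% of bins lost and 183 at least 80% kept. The longest run with at least 80% of bins lost covers 12 bins at chr2:9692101-9693300 and overlaps the 5′ end of *PMDH1*, the gene for a peroxisomal malate dehydrogenase, from which it runs upstream. Its summed siRNA was 320.4, 310.4 and 336 RPTM in WT and 29.0, 24.5 and 27.1 in *nrpe1*, or 8.33% of WT, and 79.9% of its 24-mers occur elsewhere in the genome. The next ones, 11 bins at chr5:18171201-18172300 upstream of the trypsin-family gene *AT5G45030* and 10 bins at chr3:1170101-1171100 in an intergenic stretch, retained 8.70% and 6.84%. All 3 lie on chromosome arms. No *nrpe1* library came near a WT library, which follows from picking runs of lost bins.

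The longest kept runs were much longer. A run of 51 bins at chr2:6971801-6976900 crosses 5 protein-coding genes, among them the hAT transposase-like gene *AT2G16040*, and 47 of its bins were kept. It held 1844, 1786 and 1628 RPTM in WT and 1405, 1681 and 1657 in *nrpe1*, so the groups overlapped. A run of 46 bins at chr2:2602301-2606900, over a pseudogene and the uncharacterized gene *AT2G06555*, held 3854, 3961 and 3739 RPTM in WT and 3352, 4737 and 4565 in *nrpe1*, where replicate 1 was below and the other 2 above WT. A run of 39 bins over 2 pseudogenes at chr1:16522201-16526100 held 122% of WT. The *nrpd1* level of these 3 runs was 1.25% to 1.75% of WT.

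Gained bins also lay in runs. The run with most of them, 16 gained bins of 38 at chr2:4334801-4338600, covers the uncharacterized gene *AT2G10975* and a pseudogene and held 200.1, 201 and 222 RPTM in WT. In *nrpe1* it held 678, 865 and 898 RPTM, 392% of WT, with no overlap. A run of 22 bins at chr5:10902401-10904600 over 2 pseudogenes rose from 88.4 ± 3.41 to 489 ± 41.0 RPTM, and 13 of its bins were gained. A run of 18 bins at chr3:11470401-11472200 rose from 133 ± 14.4 to 555.4 ± 111, and 12 were gained. These 3 runs are pericentromeric and held 3.39% to 9.34% of the WT level in *nrpd1*.

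**Figure D5:**
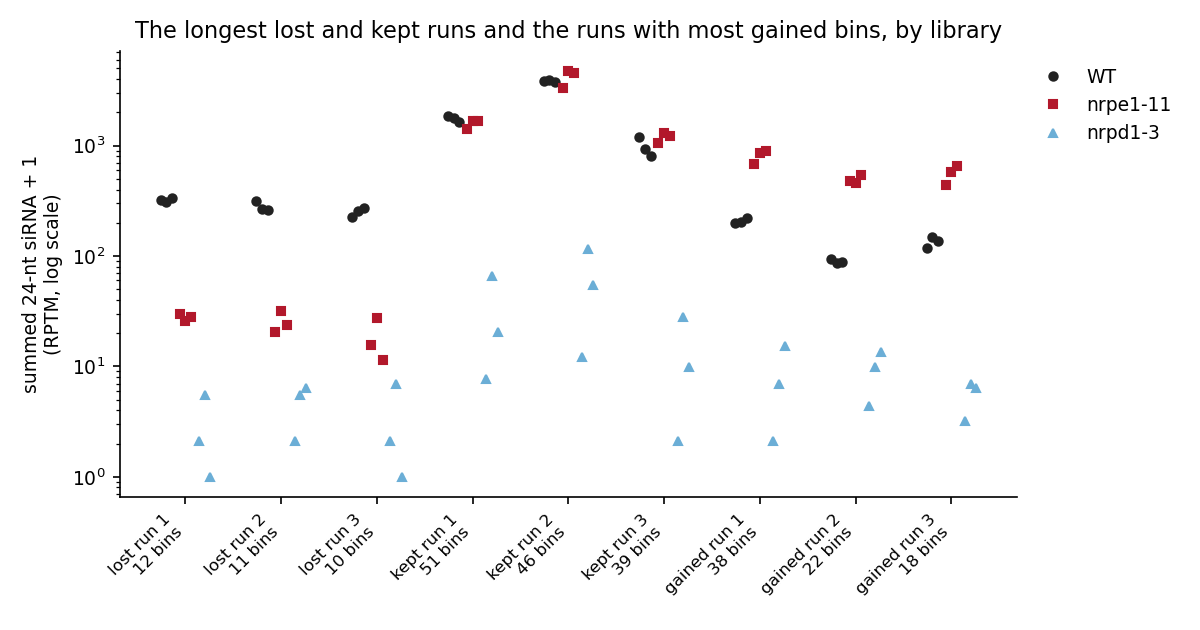
Summed 24-nt siRNA per run plus 1 RPTM on a log scale (y axis) for the 3 longest lost runs, the 3 longest kept runs and the 3 runs with most gained bins (x axis), each point a library of WT, *nrpe1-11* or *nrpd1-3*. The *nrpe1* points sit below WT in the lost runs, close to WT in the kept runs and above WT in the gained runs, and the *nrpd1* points are low in all.

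The 567 gained bins were clustered. On the arms lay 16.0% of them, beside 39.5% of all members and 63.2% of the lost bins. Runs of 5 or more bins held 50.8% of the gained bins and 15.6% of all members. Since 270 of the gained bins were members through *nrpe1* alone, gained bins helped to form and lengthen these runs. Grouping gained bins within 1 kb of each other gave 290 clusters, of which 217 held 1 bin and 27 held 5 or more, and these 27 contained 230 of the gained bins. Of the members adjoining a gained bin 39.6% were gained and 0.855% lost. The largest increase was at chr5:9904501-9904600, partly in an exon of *AT5G27890*, a gene for an uncharacterized protein. This bin held 2.42, 1.27 and 1.40 RPTM in WT and 45.1, 63.8 and 63.2 in *nrpe1*, a log2 fold change of 4.44 ± 0.33 (limma adjusted p = 4.65e-05). The bin at chr4:4843701-4843800, in an untranslated exon of *AT4G07995*, rose from 0.269 ± 0.466 to 20.2 ± 10.3 RPTM, and the intergenic bins at chr3:13481101-13481200 and chr2:5080901-5081000 from 1.54 ± 1.62 to 37.7 ± 14.1 and from 0.734 ± 0.701 to 24.8 ± 3.497. The fifth, at chr1:25595601-25595700 and 971 bp upstream of the endonuclease gene *ENDO2*, had no read in any WT library and 11.3, 11.4 and 24.1 RPTM in *nrpe1*, at least 4.49-fold higher than 3 reads in each WT library. All 5 were picked from bins that passed the test without overlap. No *nrpd1* library exceeded 2.23 RPTM in any of them.

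Protein-coding genes were touched in both directions, 1061 of them by a lost bin, 746 by a kept bin and 54 by a gained bin. These counts have no total of genes with a member beside them. Of the 6291 members in protein-coding genes 30.4% were lost and 1.73% gained, beside 31.4% and 1.08% of all members. The gene with most lost bins in its span was the F-box gene *AT1G11270*, with 9 of 10 lost and 135 ± 24.9 RPTM in WT against 11.1 ± 1.78 in *nrpe1* (SD, n = 3). *MEE15*, a major facilitator superfamily gene, lost 8 of 9 bins and fell from 103, 124.7 and 106 RPTM in the WT libraries to 1.61, 3.27 and 1.504 in *nrpe1*. The uncharacterized gene *AT1G05035* and the defensin-like gene *AT5G55565* lost 8 bins each and retained 14.4% and 4.69% of their siRNA. *AT2G34100*, annotated as a nonsense-mediated mRNA decay-like protein gene, differed from these. It had 7 lost, 4 kept and 1 gained bin of 22 and a total of 108% of WT.

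Gained bins were most frequent in *AT1G36675*, a glycine-rich protein gene with 9 of 19 bins gained, which rose from 88.8, 107 and 114 RPTM in WT to 353, 463 and 442 in *nrpe1*. The groups did not overlap, but the genes of this paragraph were picked for their gained bins. The uncharacterized genes *AT3G29637*, *AT3G29639* and *AT3G29645*, neighbours on chromosome 3 between 11471115 and 11481190, had 7 of 11, 7 of 9 and 8 of 9 bins gained. Their *nrpe1* levels were 431%, 814% and 1128% of WT. *AT2G10965* on chromosome 2 had 7 of 10 bins gained and rose from 67.5 ± 5.62 to 292 ± 99.4 RPTM.

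Most of the placed loci known for RdDM were nearly emptied. The study's primers placed 14 of 15 loci, namely intergenic sites transcribed by Pol V (IGN), nucleosomes stabilized by Pol V (PVS), the AtSN1 retroelement and soloLTR. The IGN and PVS sites were thus already tied to Pol V. Of the 50 members within 500 bp of the 14 loci 40 were lost, 4 kept and none gained, beside 31.4% lost over all members and 50.2% over arm bins. Of all members at 20 to 50 RPTM in WT 64.9% were lost, and of those above 100 RPTM 82.0%. At *IGN5*, at chr4:2323226-2323294, siRNA was 311, 308 and 309.9 RPTM in WT and 24.2, 44.1 and 13.5 in *nrpe1*. At *AtSN1* it was 149, 111 and 103 in WT and 1.61, 13.1 and 4.51 in *nrpe1*, and at *soloLTR* 11.1% of WT remained. The groups were apart at each. *IGN20*, *IGN25*, *IGN28* and *IGN32* retained 1.43% to 4.82% of WT, *IGN27* 26.4%, and *PVS1*, *PVS2* and *PVS4* 1.11% to 5.999%. At *PVS5* and *PVS6*, with WT levels of 15.5 ± 1.39 and 22.2 ± 2.00 RPTM, no *nrpe1* library had a read. *PVS3* stood apart with 114, 129 and 146 RPTM in *nrpe1* against 251, 291 and 241 in WT, or 49.7%, and 3 of its 8 bins were kept.

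The genes of the pathway themselves have siRNA bins close by. Of 43 listed genes of RdDM, methylation and demethylation, 26 had members in their span or within 2 kb, 97 bins in all. Of these bins 54 were lost (55.7%), 5 kept and 1 gained, beside 50.2% lost over all arm bins. The other 17 genes, among them *AGO4*, *DRM2* and *ROS1*, had no member. Over all members, 60.3% were lost within 0.5 kb outside a protein-coding gene, and 64.7% of arm bins within 1 kb upstream of one. The share lost near the listed genes was thus not above that of bins near genes in general, and the counts of single lists below have the same background. The list was put together with results of these data known. Among the genes for siRNA production, 19 of 29 bins were lost. *CLSY4*, a chromatin remodeler that recruits Pol IV, lost 7 of 7 upstream bins, from 192, 262 and 228 RPTM in WT to 14.5, 4.91 and 13.5 in *nrpe1*. Upstream of *CLSY1*, another remodeler of Pol IV, 5 of 8 bins were lost and 1 gained, and 46.9% of WT remained. Upstream of *HEN1*, the small RNA methyltransferase, 2 of 4 bins were lost, and the sum was 179 ± 5.60 RPTM in WT and 9.05 ± 3.64 in *nrpe1*. Downstream of *CLSY3* 11.8% of WT remained, and upstream of *DCL3*, the dicer of 24-nt siRNAs, 16.0%.

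Among the genes for Pol V targeting and effectors 16 of 27 bins were lost and none was kept or gained. *AGO9*, an Argonaute of the AGO4 clade, held 114, 111 and 106 RPTM upstream in WT and 1.61, 3.27 and 0 in *nrpe1*, and its 3 bins were lost. Upstream of *IDN2*, an RNA-binding partner of RdDM, 2 of 3 bins were lost and 3.01% of WT remained. *MORC6*, an ATPase of silencing, and *DMS3*, a component of the DDR complex that places Pol V, retained 18.2% and 12.3% of their siRNA, with 5 of 8 and 4 of 9 bins lost. *NRPE1* itself had 1 upstream bin at 9.80 ± 1.58 RPTM in WT and 3.11 ± 2.70 in *nrpe1*, which did not pass the test (limma adjusted p = 0.0804).

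Among genes for the maintenance of methylation 3 of 10 bins were lost and 3 kept. *MET1*, the CG methyltransferase, lost 2 of 5 upstream bins. Downstream of *DDM1*, the remodeler that opens heterochromatin, the level was 92.8, 95.4 and 86.5 RPTM in WT and 54.8, 96.5 and 72.2 in *nrpe1*, with overlap, and 81.5 RPTM on average in *nrpd1*. The 2 bins inside *IBM1*, a histone demethylase gene with a methylated intron, were kept. The demethylase genes *DML2* and *DML3* lost all 4 of their bins. Single lost bins near *NRPD2*, *SUVH4* and *DML2* held 20.7 ± 10.7, 23.98 ± 8.24 and 11.0 ± 0.491 RPTM in WT and no read in any *nrpe1* library. Of the genes known for a methylated repeat or promoter, *FWA*, a homeodomain gene silenced by tandem repeats, lost 4 of 4 bins and fell from 140.4, 154 and 156 to 6.44, 6.54 and 9.02 RPTM. *MEA*, an imprinted Polycomb gene, lost 4 of 6 bins and retained 4.63% of WT. *SDC*, an F-box gene silenced by promoter repeats, lost 3 of 9 and retained 62.3%, with 64.4, 121 and 128 RPTM in *nrpe1* against 127, 178 and 198 in WT, where the groups overlap by a small margin. *EPF2*, a stomatal peptide gene, had 16.1, 16.4 and 10.5 RPTM in *nrpe1* and 4.84, 3.82 and 8.37 in WT, and neither of its 2 bins passed the test (lowest limma adjusted p = 0.0452).

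The most abundant kept bins were not typical of the kept class, since they also held siRNA without Pol IV. The highest, at chr3:14192901-14193000 beside the excluded rDNA of chromosome 3, shares every 24-mer with the rDNA stretches and held 5624 ± 242 RPTM in WT and 6665 ± 726 in *nrpe1*. It is 1 of 5 members with over 50% of their 24-mers in the rDNA, which carried 0.661% of the members' WT siRNA. The second, at chr2:16537801-16537900, lies in *TAS1C*, the precursor of trans-acting siRNAs, with 5711, 4625 and 4461 RPTM in WT, 5172, 3815 and 4384 in *nrpe1* and 5030.1, 6279 and 3806 in *nrpd1*. The bin at chr3:1969301-1969400, in an exon of the uncharacterized gene *AT3G06435*, has a reverse complement within 5 kb for 68.8% of its 24-mers and held 949 ± 106 RPTM in WT and 716 ± 238 in *nrpe1*. The bins at chr1:24721401-24721500 in the noncoding gene *AT1G08833* and at chr5:22322701-22322800 between genes held 988 ± 102 and 969 ± 115.1 RPTM in WT and 785 ± 139 and 1225 ± 124.5 in *nrpe1*. In these 5 bins *nrpd1* held 526 to 6838 RPTM on average. Over the 269 members with such an inverted copy for over 50% of their 24-mers, *nrpe1* held 69.4% ± 8.25 and *nrpd1* 88.6% of WT, and 55.4% were kept. The 1892 members with an *nrpd1* mean above 50% of WT held 99.7% ± 0.228 of WT in *nrpe1*, and the other 50771 members 35.2% ± 5.10.

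The reads left at lost bins were spread unevenly over the libraries. At the 1564 lost bins above 100 RPTM in WT, *nrpe1* replicates 1, 2 and 3 held 5.40%, 8.44% and 6.83% of the WT mean. The share of these bins without a read was 38.6%, 8.76% and 32.4%. The *nrpd1* replicates differed in the same way, with 80.6%, 27.2% and 89.0% of these bins without a read. Replicate 2 of both mutants thus had reads in far more of the strongest WT bins than its fellows, although it was the shallowest *nrpe1* library and the second deepest of the 3 *nrpd1* libraries, and the origin of these reads was not tested. Leaving out *nrpe1* replicate 2 left 15798 lost bins.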

How the data were processed

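The authors made small RNA libraries from whole seedlings, removed reads of structural RNAs, mapped the rest to TAIR10, kept reads with a single genomic hit and counted 24-nt reads per 100-bp bin with bedtools. The deposited signal is coverage scaled by the authors to 10000000 mapped reads per library (RPTM). The submitters' processing notes also name CASAVA 1.8, Trim Galore 0.4.0, BWA 0.7.15 and edgeR, and the parameters of mapping are not given in the sources used here. Whole reads were recovered from the steps of the values for 100% of entries, to within 0.1 of a read. Chromosome names and lengths of the RefSeq copy were checked against the bins, and it gave genes, sequence and G+C content.

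Bins above 5 RPTM in any of the 12 libraries (56658) were tested with limma 3.58.1 in R 4.3.3 on log2(RPTM + 1), *nrpe1-11* against WT, with Benjamini-Hochberg adjusted p under 0.01, without a replicate block. The scripts used Python 3.11.15, pandas 2.3.3 and numpy 2.4.6 and were tested on simulated data. Centromere midpoints were rounded to 15, 3.6, 14, 4 and 12 Mb on chromosomes 1 to 5. Class sums were compared by two-sided exact permutation tests over libraries. Run on the recovered reads, edgeR 4.0.16 called 18403 members lower and 1023 higher with the authors' library sizes. Other scalings, filters, DESeq2 1.42.0 and left-out libraries were tried as alternatives.

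Named were the 5 lost, gained and kept bins with the largest decrease, the largest increase and the highest WT mean, the 3 longest lost and kept runs (at least 80% of bins), the 3 runs with most gained bins, the 5 protein-coding genes with most lost and most gained bins, 43 listed genes and 15 primer loci, of which AtMu1 could not be placed. The members, lists and rules were chosen with earlier results of these data known.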

Additional observations from a re-analysis of the deposited data

How the results depend on the processing

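The count of lost bins stayed within 1.5 times of 16541 under most settings tried. It was 9816 with a pseudocount of 0.1, 9366 with equal totals outside the rDNA, 10436 after quantile normalization, 4552 among unique bins, which are fewer, and 10294 to 15798 with a library left out. All 9366 and all 10436 were among the 16541. The count of gained bins depended on more settings. Against 567, it was 264 with a pseudocount of 0.1, 859 with 5, 1023 with edgeR and the authors' library sizes, 2183 with edgeR and TMM, 2010 with equal 24-nt totals, 5566 with equal totals outside the rDNA, 7496 after quantile normalization, 1776 at an adjusted p under 0.05, 882 in a joint limma fit of 4 genotypes, 215 among unique bins and 196 to 420 with a library left out. Kept bins numbered 5161 among unique bins and 14427 to 15226 with a library left out. DESeq2 called 11787 lost and 606 gained. The median log2 fold change of the members was −0.24 with equal 24-nt totals, −0.49 with TMM and 0.35 after quantile normalization, and the cause of the differences between scalings was not tested.

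The nuclear total was 65.2% of WT with equal 24-nt totals, 99.5% with equal totals outside the rDNA and 37.9% to 42.2% with a library left out. The level above 100 RPTM over that at 5 to 10 RPTM was 0.269 above 10 RPTM in any library, 0.277 above 5 RPTM in at least 3 libraries, 0.181 among unique bins, 0.376 with classes from WT replicate 1 and 0.309 to 0.340 with a library left out. The log2 difference of arm against pericentromere was −1.47 with a pericentromere of 2 Mb and −1.38 to −1.33 with a library left out. That of single bins against long runs was −0.99 above 10 RPTM, −0.98 above 5 RPTM in at least 3 libraries, −1.56 among unique bins, −1.04 with runs joined across 1 missing bin and −0.93 to −0.89 with a library left out. That of run edges against interiors reversed to 0.087 above 10 RPTM and was −0.23 among unique bins, −0.26 with joined runs and −0.11 to −0.04 with a library left out. Leaving out the members with an *nrpd1* mean over 50% of WT was chosen after seeing the data and gave 0.210 for the level ratio, −1.68 for the arms and −1.03 for single bins. The *TAS1C* bin and the bin in *AT1G08833* turned to log2 fold changes of 1.19 and 1.00 with equal totals outside the rDNA. Over the nuclear bins tested, same-numbered WT and *nrpe1* libraries deviated from their group means with correlations of 0.06, −0.01 and 0.02. These correlations cannot decide whether replicate numbers pair the samples, since many bins hold few reads. Replicate 2 of *nrpe1* and of *nrpd1* both had reads at more of the lost bins. A replicate block gave 16865 lost, 488 gained and 15208 kept bins.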

Other observations

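The *pkl-1* mutant of the chromatin remodeler PICKLE, whose 3 libraries share the WT controls, had siRNA at most of the bins that *nrpe1* had lost. Its library medians were 11.3 ± 3.78 RPTM at lost bins, 7.78 ± 2.51 at kept bins and 6.04 ± 1.80 at gained bins (SD, n = 3). The strongest lost bins differed among themselves in *pkl-1*. The bin in *AT4G03380* held 3502, 4591 and 5841 RPTM, above the 3 WT libraries, whereas the bin at chr5:19952501-19952600 held 6.94, 21.5 and 18.1 and the bin upstream of *AT5G17440* 0, 25.8 and 16.7. These last values lie far below WT. No test was made of these bins in *pkl-1*, and they were picked after their values were seen. In the arms the mean *pkl-1* level was 63.2% of WT, with libraries from 39.5% to 81.6%. In the pericentromere it was 83.5%, with libraries from 56.5% to 105.6%, so the 2 ranges overlapped.

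Lost bins lay a median of 727 bp from the nearest protein-coding gene, gained bins 2364 bp and kept bins 3265 bp, beside 1673 bp over all members. No 24-mer was repeated elsewhere in the genome in 41.4% of gained bins, against 28.6% of lost, 33.9% of kept and 31.8% of all bins. Gained bins overlapped protein-coding genes in 19.2% of cases and pseudogenes in 22.0%, beside 11.9% and 23.9% of all members, and none of them had an inverted copy within 5 kb for over 50% of its 24-mers. These shares describe bins that the test itself chose and carry no test.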
